A study of Mus musculus with 4 samples.

Results

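Apolipoproteins and the proteins that load, process and take up their particles were followed in cultured mouse astrocytes carrying a short hairpin RNA (shRNA) against Phf8. The 9 genes are Apoe, Clu and Apod, which encode apolipoproteins, Lpl, which encodes lipoprotein lipase, Abca1 and Abcg1, which encode lipid exporters, and Lrp1, Lrp8 and Vldlr, which encode related lipoprotein receptors of the cell surface. They were chosen by symbol, all 9 were found, and they stand among 55421 genes in the deposited counts. The cells were astrocytes derived in culture from neural stem cells of the C57BL/6J strain, in medium with serum. A lentivirus delivered either a control shRNA (2 libraries) or the Phf8 shRNA (2 libraries). The cells of all 4 libraries were thus differentiated and infected, and the labels set the groups apart by the hairpin. Phf8 encodes a histone demethylase. No source used here gives the promoter that drives the hairpin, its sequence or the age of the cultures.

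Astrocytes are the main source of apolipoprotein E in the brain. They secrete it in small particles resembling high density lipoprotein (HDL), to which the ATP-binding cassette proteins ABCA1 and ABCG1 add phospholipid and cholesterol. Other cells take the particles up through lipoprotein receptors, several of which also bind the matrix protein reelin and pass its signal to the adaptor DAB1. Liver X receptors, which sense oxidised cholesterol, are known activators of the Abca1 and Abcg1 genes.

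The targeted gene is given first, as a partial check of the labels. Phf8 (chromosome X, 151520672 to 151633859, mm10) was at 53.3 and 53.0 CPM with control shRNA and at 44.3 and 42.3 CPM with Phf8 shRNA, a difference of 18.5% less transcript with an adjusted p of 1.72e-06. CPM, the usual depth-scaled read count, use library sizes corrected by TMM (edgeR's trimmed mean of M-values), and p-values come from the edgeR quasi-likelihood F test, adjusted over 21042 genes tested. The design text calls the libraries biological replicates without saying whether cultures or infections were separate, so p-values reflect no more than the spread among these libraries, which could be technical. Each library held 36839530 to 44724759 reads, of which 21.2% to 22.5% came from mitochondrial ribosomal RNA in the control group and 27.8% to 28.2% in the Phf8 shRNA group. At an adjusted p under 0.05, 52.1% of the genes tested were called, 24.8% higher and 27.3% lower with Phf8 shRNA. Among the calls 47.7% were higher with TMM, 58% with upper-quartile scaling and 40.3% with library size alone, and the median log2 fold change of all genes was 0.01. Because 27.3% of the genes tested were called lower, the fall of Phf8 by itself cannot verify the labels. With a biological coefficient of variation set to 0.2, in place of the fitted 3.64%, Phf8 did not pass (edgeR likelihood ratio test, adjusted p = 0.639).

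Of the 9 genes, 8 passed the filter on low counts. Vldlr, Abcg1 and Lpl rose, Clu, Abca1, Lrp1 and Lrp8 fell, Apoe did not pass the test, and Apod was not tested. The 7 of 8 called stand beside 52.1% of all genes tested and 65.1% of the 9142 genes that averaged 10 CPM or more. Of the 8, 3 (Clu, Vldlr and Abcg1) changed at least 2-fold, beside 14.2% of all genes tested and 8.09% of those that averaged 10 CPM or more. Abcg1, at 0.586 and 1.23 CPM in the group means, is counted among the 8 but lies outside the set that averaged 10 CPM or more. The CPM of both groups did not overlap for any of the 8, which was also true of 73.9% of genes tested.

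**Figure D1:**
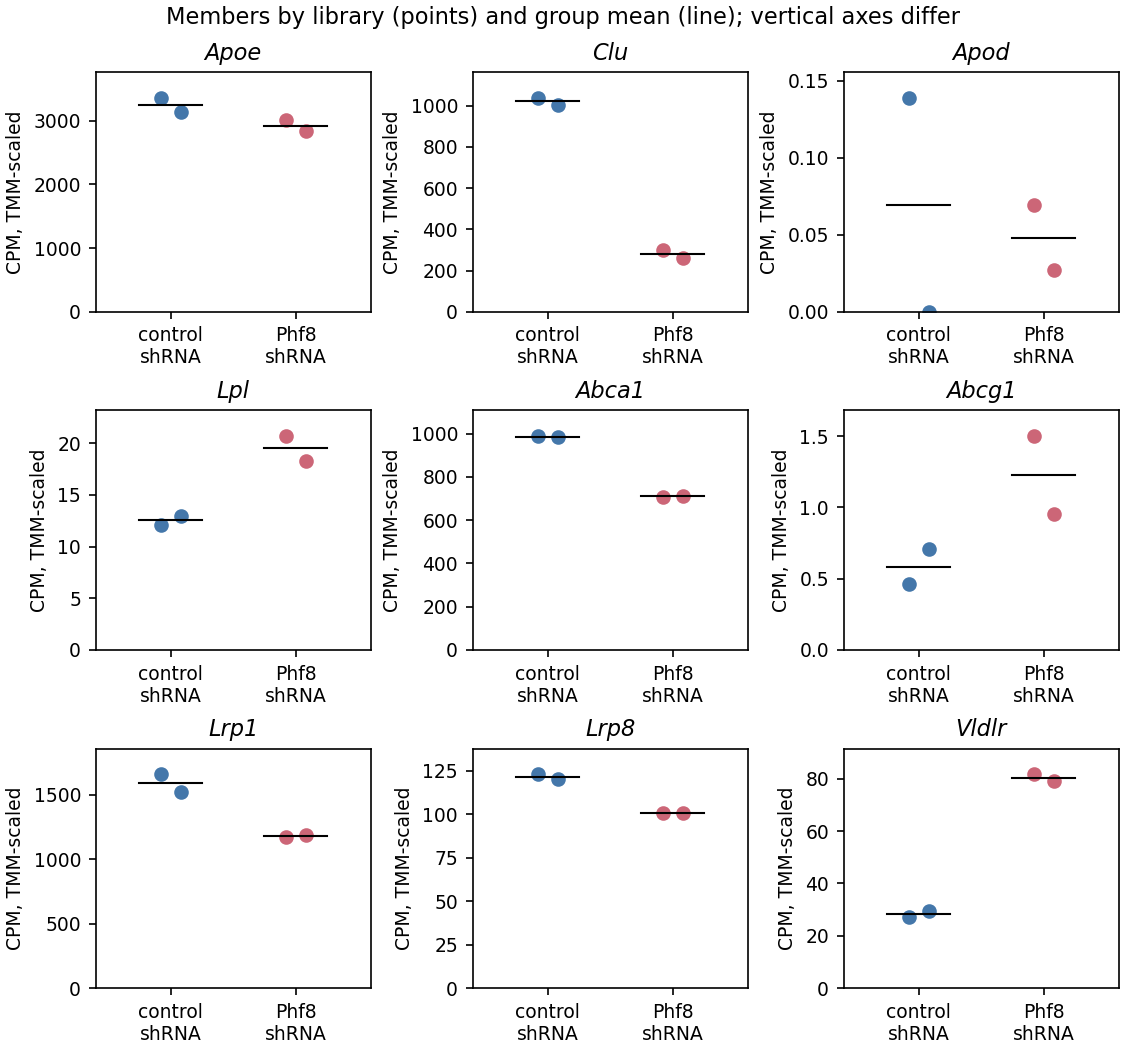
TMM-scaled CPM of the 9 genes in each of the 4 libraries (points; blue, control shRNA; red, Phf8 shRNA), with the mean of each group as a line; each vertical axis starts at 0 and has its own scale. Clu drops from about 1021 to 281 CPM and Vldlr climbs from 28.3 to 80.4 CPM, while the Apoe points lie close to each other.

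Apoe was the most abundant of the 9 genes and was among the most abundant protein-coding transcripts of these cells. It lies on the minus strand of chromosome 7 from 19696109 to 19699188. Its level was 3358 and 3135 CPM with control shRNA and 3008 and 2835 CPM with Phf8 shRNA. Both Phf8 shRNA libraries were below both controls, by a margin smaller than the distance between libraries of the same group. The log2 fold change was -0.15 ± 0.07 (SE), with an adjusted p of 0.052 in edgeR, so Apoe did not pass. It passed with DESeq2 (adjusted p = 0.0133), with limma-voom (0.00274) and under the other settings listed in the closing section. Over all alternatives its log2 fold change ran from -0.20 to -0.07, the latter with upper-quartile scaling, where it did not pass (adjusted p = 0.313). Per kilobase of exon, Apoe ranked 4, 4, 4 and 5 among protein-coding genes in the 4 libraries, and it took 0.283% to 0.344% of all reads.

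Clu encodes clusterin, also known as apolipoprotein J, a secreted chaperone carried on the same kind of particle. The gene is on the plus strand of chromosome 14 (65968483 to 65981547). It stood at 1038 and 1005 CPM with control shRNA and at 301 and 261 CPM with Phf8 shRNA. The groups are far apart compared with the distance between libraries of a group. Clu fell 3.64-fold (log2 fold change -1.86 ± 0.06 SE, edgeR adjusted p = 1.38e-191). Its rank per kilobase among protein-coding genes went from 34 and 35 to 139 and 158.

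In bulk RNA, fewer cells of a type and less RNA per cell cannot be told apart. Markers of several cell types changed in the same libraries, and not all in the direction of Clu. In the neuron list 6 of 7 tested markers rose and 0 fell, and in the oligodendrocyte lineage list 7 of 8 rose and 0 fell. In the multiciliated ependymal list, 6 of 8 markers were tested and all 6 fell. The summed level of that list went from 178 to 186 CPM in control libraries to 30.7 to 31.4 CPM in Phf8 shRNA libraries, with Tmem212 at 0 reads throughout. In the astrocyte list, 6 of 10 markers fell and 3 rose, and its sum went from 9602 to 9854 CPM to 6560 to 7303 CPM. The astrocyte markers Gfap (filament), Aqp4 (water channel) and Slc1a2 (glutamate transporter) stood at 3971, 1337 and 135 CPM in the control mean. These defining markers of astrocytes were thus present in the cultures. With Phf8 shRNA their means were 1172, 532 and 975 CPM, so Gfap and Aqp4 fell while Slc1a2 rose. The neural stem and progenitor list, in which 3 of 8 markers fell and 4 rose, went from a sum of 7284 to 7447 CPM to one of 3381 to 3692 CPM, with Nes 4.85-fold lower. The endothelial and mural list, with 4 of 6 tested markers lower and 1 higher, summed to 27.1 to 27.3 CPM in control and 25.5 to 25.9 CPM in Phf8 shRNA libraries, with Cdh5 at 0 reads. These near-equal sums hide opposite changes. Pdgfrb rose from 9.54 to 23.9 CPM in the group means. Acta2 fell from 8.81 to 0.436 CPM, Kdr from 4.49 to 0.465, Rgs5 from 2.67 to 0.505 and Kcnj8 from 1.57 to 0.0545. In the fibroblast and meningeal list, 2 of 4 tested markers fell and 1 rose, which was Pdgfrb again, as it stands in both lists. The sum of all 8 was 431 to 448 CPM in control and 35.3 to 35.8 CPM in Phf8 shRNA libraries. The part of any of these lists in the level of Clu was not tested.

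The ratio of Apoe to Clu reads within a library does not depend on how libraries are scaled. It was 3.24 and 3.12 with control shRNA and 10.0 and 10.9 with Phf8 shRNA. Per kilobase of exon the same ratios were 5.20 and 5.02 against 16.1 and 17.5. With 2 libraries against 2, an exact two-sided permutation test of such a ratio cannot go below p = 0.333, so the ratios are given as values.

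Apod encodes apolipoprotein D, a lipocalin made by glia and fibroblasts. It had 6 and 0 reads with control shRNA and 3 and 1 with Phf8 shRNA, and it was not tested. The depth-adjusted ratio of Phf8 shRNA over control reads was 0.702, with a 95% exact counting interval from 0.146 to 2.96. A change within that interval was not detectable at this depth. Among the fibroblast and meningeal markers described beside Clu, whose sum was lower with Phf8 shRNA, most of the control sum was Fn1. It was at 418 CPM in the control mean and 11.2 CPM with Phf8 shRNA. Col6a1 fell from 985 to 4 reads, whereas Pdgfrb rose 2.51-fold. Col1a1, with 26 control and 16 Phf8 shRNA reads, was not called, and Col3a1, with 23 and 7, was not tested. Col1a2, Lum and Dcn had no more than 1 read in any library. The part of fibroblast and meningeal cells in the reads of Apod was not tested. Intervals on reads cover counting error only.

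In a list of 16 other apolipoprotein genes (Apoa1 to Apol9b), none reached the level of Apoe or Clu. Of those 16, 5 passed the low-count filter and 0 were called. The median log2 fold change of those 5 was -0.01, beside 0.01 for all genes. Every one of the 16 was below 1 CPM in the control mean, and Apoa4, Apoc2, Apoc4 and Apol9a had no reads. Apoc1, the neighbour of Apoe, had 29 and 24 control and 42 and 30 Phf8 shRNA reads (log2 fold change 0.51 ± 0.29 SE, edgeR adjusted p = 0.137).

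Lpl encodes the lipase that releases fatty acids from the triglycerides of lipoproteins. The gene (chromosome 8, plus strand, 68880491 to 68907448) was at 12.1 and 13.0 CPM in control and 20.7 and 18.3 CPM in Phf8 shRNA libraries. Both Phf8 shRNA libraries were above both controls. Lpl rose 1.56-fold (log2 fold change 0.64 ± 0.08 SE, edgeR adjusted p = 5.74e-15). With a biological coefficient of variation set to 0.2, in place of the fitted 3.64%, it did not pass (adjusted p = 0.146). Microglia and macrophages, which also express Lpl and Apoe, had low markers here. The 10 markers of those cells summed to 8.95 to 9.63 CPM in control and 6.11 to 6.18 CPM in Phf8 shRNA libraries, 5 were tested, 0 rose and 2 fell. Oligodendrocyte lineage markers were higher, with 7 of 8 risen and a sum of 373 to 394 CPM in control against 634 to 657 CPM in Phf8 shRNA libraries. The part of that lineage in the level of Lpl was not tested.

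Other lipases and genes whose products act on lipases were examined next. Angptl4, which encodes a secreted inhibitor of lipoprotein lipase, went from 97.1 and 96.1 CPM to 19.3 and 17.7 CPM. It fell 5.21-fold (log2 fold change -2.38 ± 0.06 SE, edgeR adjusted p = 5.84e-307). Lmf1, which encodes a factor that matures lipases in the endoplasmic reticulum, rose from 19.7 to 27.0 CPM, and its relative Lmf2 fell from 29.2 to 23.7 CPM. Lipg, the endothelial lipase gene, fell 1.80-fold and Gpld1, a phospholipase gene, fell 3.02-fold, with 45.5% of the exonic length of Gpld1 overlapping a gene on the opposite strand. Gpihbp1, which anchors lipoprotein lipase on capillaries, had at most 1 read in a library. Of 14 genes in this list, 12 were tested, 1 rose and 6 fell, with a median log2 fold change of -0.32. Among all genes tested, 24.8% were called higher and 27.3% lower, 52.1% in either direction.

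Among the lipid exporters, Abca1 fell, and Abcg1 rose at a level of at most 65 reads in a library. Abca1 moves cholesterol and phospholipid onto lipid-poor apolipoproteins and lies on the minus strand of chromosome 4 from 53030787 to 53159895. It was at 989 and 984 CPM with control shRNA and 709 and 713 CPM with Phf8 shRNA. The libraries of each group were nearly equal, and the groups were clearly apart. Abca1 fell 1.39-fold (log2 fold change -0.47 ± 0.06 SE, edgeR adjusted p = 1.24e-13), and it did not pass with the coefficient of variation set to 0.2 (adjusted p = 0.333).

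The promoter window of Abca1 is shown because the liver X receptor response of the gene is known to run through it, with those of Lrp1, which also fell, and Vldlr, which rose. Each runs 5′ to 3′ on the strand of the gene, from 250 bases before to 50 after the transcription start that coincides with the deposited start of the gene (RefSeq, GRCm38.p6). They are chr4:53159846-53160145 (minus strand) for Abca1, chr10:127621099-127621398 (minus strand) for Lrp1 and chr19:27216234-27216533 (plus strand) for Vldlr. Capitals mark matches to the motifs searched.
Abca1: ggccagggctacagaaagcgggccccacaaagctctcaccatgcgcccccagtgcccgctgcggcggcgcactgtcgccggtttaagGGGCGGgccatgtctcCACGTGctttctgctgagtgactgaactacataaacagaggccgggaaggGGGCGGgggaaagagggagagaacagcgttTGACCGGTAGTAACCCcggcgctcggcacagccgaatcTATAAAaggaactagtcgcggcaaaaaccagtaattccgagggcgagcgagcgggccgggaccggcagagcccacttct
Lrp1: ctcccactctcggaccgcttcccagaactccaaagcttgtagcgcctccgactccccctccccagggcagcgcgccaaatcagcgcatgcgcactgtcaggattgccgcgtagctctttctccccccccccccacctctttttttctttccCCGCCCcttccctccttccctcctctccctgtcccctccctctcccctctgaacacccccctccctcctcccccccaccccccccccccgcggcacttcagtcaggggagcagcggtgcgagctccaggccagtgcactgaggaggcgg
Vldlr: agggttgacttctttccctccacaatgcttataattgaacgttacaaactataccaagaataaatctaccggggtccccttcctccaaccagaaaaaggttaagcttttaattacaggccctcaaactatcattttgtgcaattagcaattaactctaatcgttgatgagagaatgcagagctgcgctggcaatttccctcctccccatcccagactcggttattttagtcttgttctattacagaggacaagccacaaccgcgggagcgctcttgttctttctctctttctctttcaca

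The motifs were searched on both strands in 32851 windows of all genes. In Abca1 the capitals are, in order, a GC box (GGGCGG), an E-box (CACGTG), a second GC box, a 16-base element and a TATA box (TATAAA), which starts 29 bases before the transcription start. A GC box was present in 35.7% of all windows, an E-box in 7.15% and the TATA box in 13.6%. The exact direct repeat of AGGTCA with a spacer of 4 bases, the type bound by liver X receptors, was in 0.0152% of windows and in no window of these genes. A search allowing 3 mismatches in the 12 letters compared, added after the exact one found nothing, gave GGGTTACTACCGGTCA on the opposite strand of Abca1, whose capitals are its complement and start 67 bases before the transcription start. Such a match was present in 21.9% of all windows and in none of the other windows of the 9 genes. The capitals in Lrp1 are 1 GC box on the opposite strand, and the Vldlr window shown held none of these letters. Neither AGGTCA alone (16.3% of windows) nor the AP-1 motif TGANTCA (7.81%) was in the 3 windows, whose GC content was 62.7%, 67.7% and 43.0% beside a median of 52.7%. Vldlr also had a window, not shown, around a start 536 bases from the deposited one. That window had a GC content of 68% and held a GC box on the opposite strand. What the Vldlr window holds thus depends on the start chosen. A match or its absence is a description of the letters only. Windows were found for 6 of the 9 genes, Apoe, Apod, Abca1, Lrp1, Lrp8 and Vldlr.

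Abcg1, which completes the loading of HDL particles with cholesterol, lies on the plus strand of chromosome 17 from 31057675 to 31117988. It had 20 and 29 reads in the control and 65 and 35 reads in the Phf8 shRNA libraries, or 0.462 and 0.709 against 1.50 and 0.953 CPM. Phf8 shRNA replicate 1 was the highest, and replicate 2 was closer to the upper control than to it. The log2 fold change was 1.09 ± 0.28 (SE, edgeR adjusted p = 2.71e-04), and the depth-adjusted ratio of reads was 2.15 (95% exact counting interval 1.51 to 3.09). The call was lost without Phf8 shRNA replicate 1 (log2 fold change 0.71, adjusted p = 0.104) and without control replicate 1 (0.80, adjusted p = 0.0531). In every library Abca1 had at least 472 times the reads of Abcg1.

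Of 16 other genes of lipid export and HDL remodelling, all tested, 3 rose and 8 fell, beside 24.8% higher and 27.3% lower among all genes, with a median log2 fold change of -0.12. Pltp, which encodes the phospholipid transfer protein and is a known liver X receptor target, went from 21.5 and 19.0 CPM to 7.59 and 6.84 CPM. It fell 2.80-fold (log2 fold change -1.49 ± 0.09 SE, edgeR adjusted p = 7.96e-64), and 19.3% of its exonic length overlaps Ctsa on the opposite strand. Abcg2, an exporter of drugs and urate, fell 1.98-fold and Abca5 fell 1.48-fold. The neighbouring relatives Abca8a and Abca9 on chromosome 11 went in opposite directions. Abca8a rose 5.05-fold from 52 to 250 reads and Abca9 fell 4.21-fold from 240 to 54 reads, and no source used here says how reads shared between related genes of that cluster were counted.

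**Figure D2:**
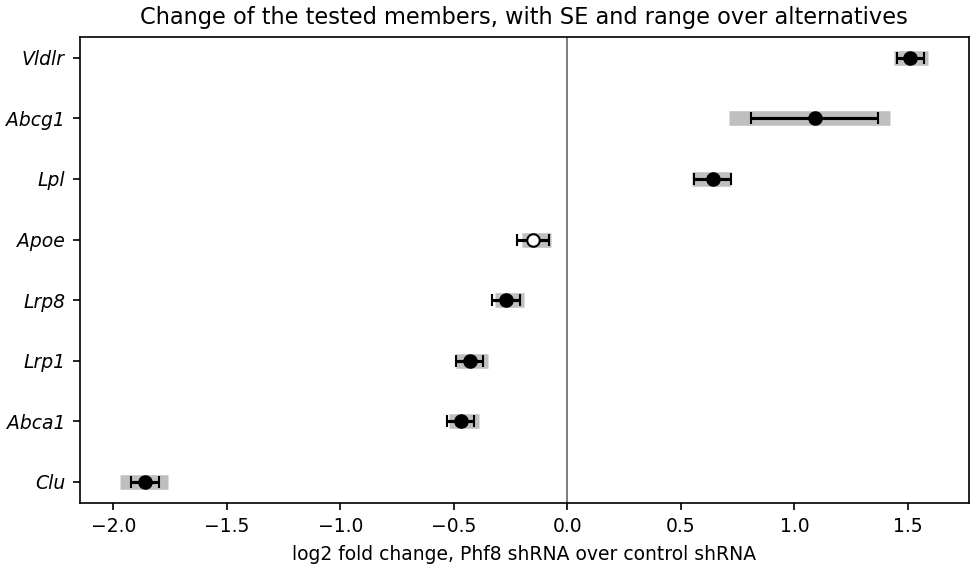
Log2 fold change of Phf8 shRNA over control shRNA for the 8 genes tested. Points give the main value with its SE, filled where the gene passed and open where it did not (Apoe), and grey bars give the lowest and highest value over the alternative settings. Every bar stays on one side of 0, and that of Abcg1 is the widest, from 0.71 to 1.42.

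The 3 receptors went in different directions. Lrp1 encodes a large endocytic receptor that binds apolipoprotein E and many other ligands, and it lies on the minus strand of chromosome 10 from 127538161 to 127621148. It was at 1660 and 1521 CPM in control and 1171 and 1192 CPM in Phf8 shRNA libraries. The groups were further apart than the libraries within them. Lrp1 fell 1.35-fold (log2 fold change -0.43 ± 0.06 SE, edgeR adjusted p = 1.34e-10).

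Lrp8 and Vldlr are close relatives that bind both apolipoprotein E and reelin. Lrp8, which encodes the receptor ApoER2 (chromosome 4, plus strand, 107801869 to 107876840), was at 123 and 120 CPM in control and 101 and 101 CPM in Phf8 shRNA libraries. It fell 1.21-fold (log2 fold change -0.27 ± 0.06 SE, edgeR adjusted p = 4.87e-06). With the coefficient of variation set to 0.2 neither Lrp1 (adjusted p = 0.405) nor Lrp8 (0.685) passed.

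Vldlr, the very low density lipoprotein receptor gene, lies on the plus strand of chromosome 19 from 27216484 to 27254231. It went from 27.1 and 29.4 CPM to 81.7 and 79.1 CPM. The libraries within each group lay close together, and Vldlr rose 2.85-fold (log2 fold change 1.51 ± 0.06 SE, edgeR adjusted p = 6.68e-139). It passed under all 14 alternatives, as did Clu. The part of the neuron and oligodendrocyte lineage markers, which were higher as well, in the level of Vldlr was not tested. Of 7 neuron markers tested, 6 rose, and their list of 8 summed to 1133 to 1174 CPM in control and 1853 to 1858 CPM in Phf8 shRNA libraries.

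The reads of both reelin receptors came closer to each other with Phf8 shRNA. Lrp8 had 4.54 and 4.09 times the reads of Vldlr with control shRNA and 1.23 and 1.28 times with Phf8 shRNA. Per kilobase of exon, the ratios were 4.35 and 3.92 against 1.18 and 1.23 with all exons merged. By the longest principal transcript the levels lay further apart, at 26.7 CPM per kilobase for Lrp8 and 3.55 for Vldlr in control and 22.2 and 10.1 with Phf8 shRNA. Lrp1 had 61.2 and 51.7 times the reads of Vldlr in the controls and 14.3 and 15.1 times with Phf8 shRNA.

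**Figure D3:**
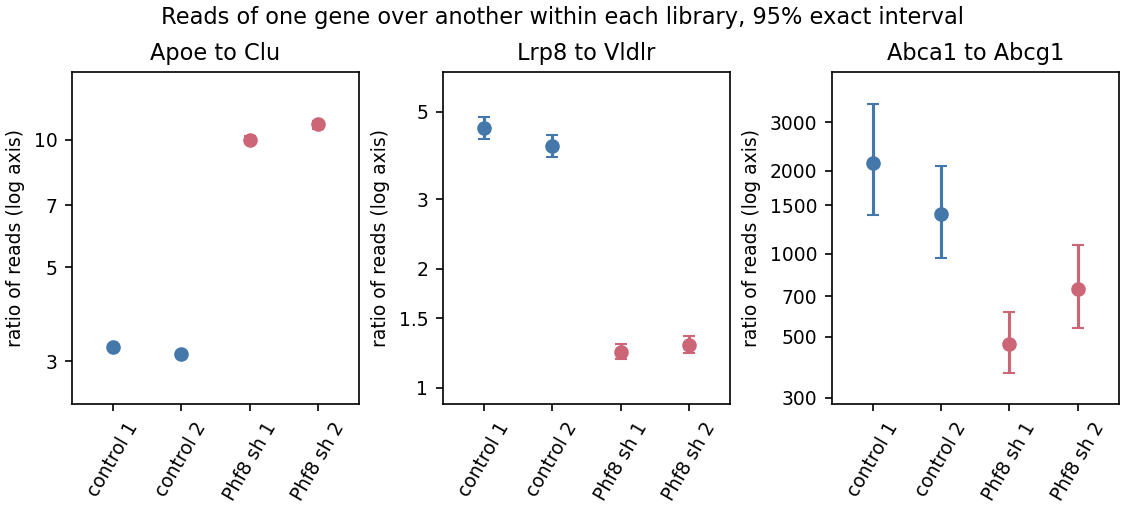
Reads of one gene over those of another within each library, on log axes, for Apoe to Clu, Lrp8 to Vldlr and Abca1 to Abcg1, with 95% exact intervals for counting error. Both Phf8 shRNA libraries lie above both controls for Apoe to Clu (10.0 and 10.9 against 3.24 and 3.12) and below them for the other pairs.

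The transcript of reelin itself was higher. The part of the neuron markers, which rose too, in the levels of Reln and Dab1 was not tested. Reln went from 24.1 and 23.1 CPM to 53.4 and 52.0 CPM, a 2.23-fold rise (log2 fold change 1.16 ± 0.06 SE, edgeR adjusted p = 5.91e-75). Dab1, which encodes the adaptor that both reelin receptors signal through, rose 1.28-fold to 55.1 ± 0.989 CPM (SD, n = 2). Lrpap1, which encodes a chaperone that keeps these receptors from binding ligand inside the cell, fell 1.22-fold, and Snx17, a gene of receptor recycling, fell 1.25-fold. Bmp1, a protease gene, fell 1.43-fold. Mylip, which encodes the ubiquitin ligase that degrades several lipoprotein receptors and is a liver X receptor target, had 43 and 53 control and 44 and 32 Phf8 shRNA reads, with groups that overlapped (log2 fold change -0.27 ± 0.25 SE, edgeR adjusted p = 0.399). Of the 10 chaperones, ligands and regulators, all tested, 3 rose and 4 fell, beside the same 24.8% and 27.3%, with a median log2 fold change of -0.20.

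Among 19 other lipoprotein receptors, 16 were tested, of which 6 rose and 9 fell (median log2 fold change -0.26), beside 52.1% called of all genes tested and 65.1% of those that averaged 10 CPM or more. Lrp2, which encodes megalin, a receptor that takes up clusterin, fell 3.48-fold from 161 and 156 CPM to 43.3 and 47.9 CPM. Scarb1, the HDL receptor gene, fell 3.07-fold, and Sorl1, a sorting receptor gene, fell 1.73-fold from 151 ± 1.31 to 86.8 ± 7.39 CPM (SD, n = 2). Lrp4, which encodes a receptor for agrin, rose 2.23-fold from 69.5 and 64.1 CPM to 151 and 146 CPM. Trem2 and Olr1, receptors of macrophages, had no reads in any library.

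Sterol sensors and nuclear receptors held genes that rose and genes that fell. Nr1h2, which encodes liver X receptor beta, was at 30.3 and 28.6 CPM in control and 27.6 and 27.6 CPM in Phf8 shRNA libraries and did not pass (log2 fold change -0.09 ± 0.07 SE, edgeR adjusted p = 0.239). Nr1h3, which encodes liver X receptor alpha, fell 1.49-fold from 157 to 100 reads (edgeR adjusted p = 0.0149). Their partner gene Rxra rose 1.62-fold, from 24.2 and 24.1 CPM to 38.6 and 39.3 CPM. Srebf1, which encodes a regulator of fatty acid synthesis and is a liver X receptor target, fell 1.47-fold, whereas Srebf2, which encodes the regulator of cholesterol synthesis, was at 166 ± 9.25 and 158 ± 6.00 CPM (SD, n = 2) and did not pass (edgeR adjusted p = 0.291). Ppara, a fatty acid sensor gene, rose 2.20-fold from 149 to 311 reads, and Insig2, a gene of sterol feedback, fell 1.41-fold. Over 15 genes tested of 18, 6 rose and 4 fell, beside 52.1% of all genes called, with a median log2 fold change of 0.05.

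**Figure D4:**
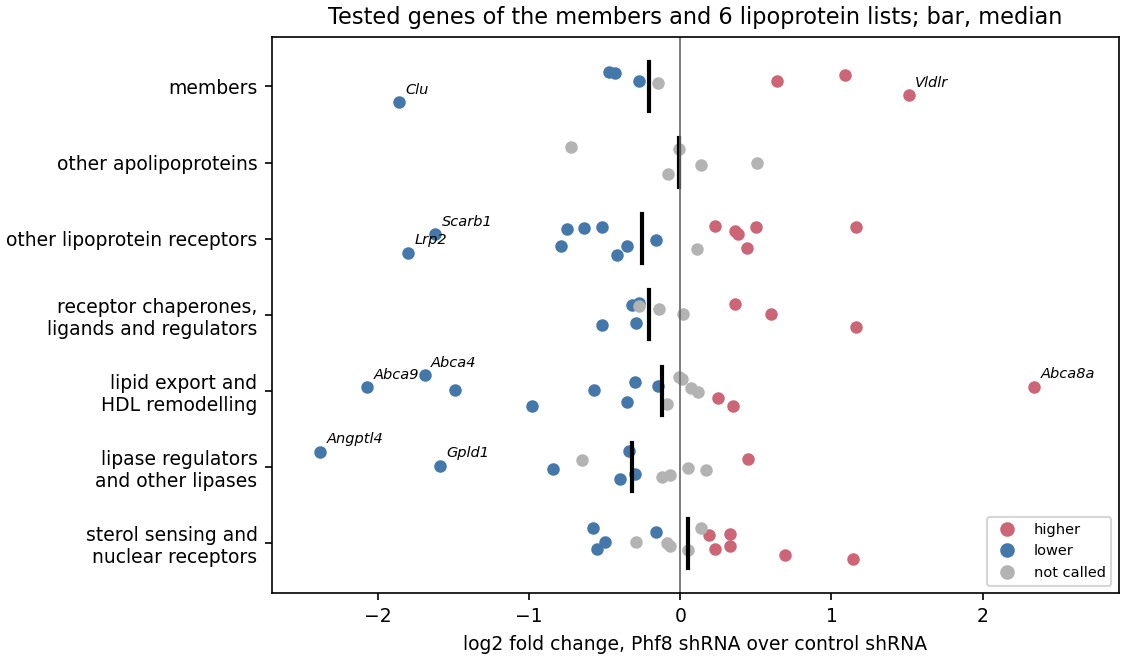
Log2 fold changes of the tested genes among the 9 (top row) and in 6 lists of lipoprotein genes (rows below), coloured by call; black bars are medians, vertical jitter has no meaning, and genes beyond 1.5 in either direction are named. Medians lie between -0.32 and 0.05, and each list with a call has genes on both sides of 0.

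Levels per kilobase of exon set the order of the 9 genes. In control libraries Apoe came first at 1519 ± 73.7 CPM per kilobase (SD, n = 2), followed by Clu at 297 ± 6.87, Abca1 at 95.2 ± 0.348 and Lrp1 at 89.8 ± 5.54. Lrp8 followed at 11.6 ± 0.199, Vldlr at 2.81 ± 0.159, Lpl at 1.20 ± 0.0553 and Abcg1 at 0.0802 ± 0.0239 CPM per kilobase, and Apod was last. With Phf8 shRNA the order was the same, but Clu, at 81.7 ± 8.14, had come near to Abca1 at 68.6 ± 0.222 and Lrp1 at 66.7 ± 0.853, and Vldlr, at 7.98 ± 0.183, near to Lrp8 at 9.61 ± 0.0499 CPM per kilobase. These lengths merge the exons of all transcripts of a gene. With the length of the longest principal transcript instead, Lrp1 stood above Abca1 in both groups (107 against 96.1 and 79.3 against 69.3 CPM per kilobase), so the order of these neighbours depends on the transcript, while all other places stayed the same. The distances depend on it too. By that length, Clu stood at 155 CPM per kilobase with Phf8 shRNA, further above Abca1 and Lrp1, and Vldlr at 10.1 against 22.2 for Lrp8.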

How the data were processed

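RNA of 4 astrocyte libraries was sequenced after ribosomal RNA depletion with a stranded kit, per the labels' protocols. The deposited files give raw read counts per gene, 1 file per library, as the authors made them. The submitters' processing notes name HISAT2 (an aligner), HTSeq (a read counter), DESeq2 and mm10. No source used here gives versions, annotation release or strand setting. Exon lengths and overlaps came from GENCODE M21 of the same build, which held 55240 of 55421 genes. Symbols came from a separate list of gene names, and from GENCODE M21 where that list gave none. Groups came from sample titles.

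Counts of all 4 libraries were fitted with edgeR 4.0.16 in R 4.3.3 (filterByExpr, TMM, quasi-likelihood F test, two-sided, no covariates, Benjamini-Hochberg adjusted over all genes tested, called under 0.05, no fold minimum). SE was the fold change divided by the root of F. DESeq2 1.42.0 and limma 3.58.1 were alternatives, beside other scalings, filters, a replicate block, a fixed spread and leaving out libraries. The fit was tested on simulated counts. Same-numbered libraries of both groups did not deviate together (r = -0.00102 across genes). The 9 genes, the 6 lipoprotein lists and 8 marker lists were chosen with earlier results of these data known. Genes named were the 9, Phf8, up to 5 called genes of each lipoprotein list by smallest p, 9 best known partners and the first 3 markers of each cell type; some of these are not reported here. Other genes named, and the pairs of genes set as read ratios, were chosen after their values were seen.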

Additional observations from a re-analysis of the deposited data

How the results depend on the processing

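Clu and Vldlr kept their direction and call under all 14 alternatives, at log2 fold changes from -1.97 to -1.76 and from 1.44 to 1.59. No result reversed. Apoe, which did not pass, passed with library size alone (-0.20), no low-count filter (-0.16), a minimum of 1 CPM in 2 libraries (-0.14), DESeq2 (-0.15) and limma-voom (-0.15). Leaving out single libraries moved it from -0.20 to -0.11, and it passed without Phf8 shRNA replicate 1 (adjusted p = 9.19e-05) or 2 (0.0434); being among the 20 most abundant genes, it had no value without those. Abcg1 ran from 0.71 to 1.42 without single libraries and had no value with the 1 CPM minimum.

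With a biological coefficient of variation of 0.2, Phf8 (-0.30), Lpl (0.63), Abca1 (-0.47), Lrp1 (-0.43) and Lrp8 (-0.27) no longer passed, 1 of the 9 genes fell, and over all genes 1262 rose and 2043 fell in place of 5225 and 5740. Calls higher and lower in the lists were then 1 and 3 for other receptors, 1 and 0 for chaperones and ligands, 1 and 4 for lipid export, 0 and 3 for lipases and 1 and 0 for sterol sensing. Lipase genes called higher numbered 3 with upper-quartile scaling, 2 with the 1 CPM minimum and 1 to 2 without single libraries. Sterol sensing genes called lower numbered 2 to 4 without single libraries. With the replicate block, 5202 genes rose and 5727 fell, and Apoe was at -0.15; it changed no call among the 9. Apod had a fitted value only without the filter, and its depth of 10 reads in all sets no direction.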
